A study of Mus musculus with 12 samples.

Results

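Macrophages make surface receptors and soluble ligands with which they take up spent molecules and dying cells. The 9 genes described here are of this kind, apart from the macrophage marker Adgre1. They were measured in cultures that did or did not receive the osteoclast-inducing cytokine RANKL. The genes were taken by symbol from the full count table: Mrc1, Cd163, Msr1, Stab1, Mertk, Axl, Gas6, Adgre1 and Lrp1. All 9 were found among the 23863 genes of the table, and all 9 passed the filter on low counts that left 13236 genes for testing. RNA was sequenced from sorted mouse bone marrow osteoclast precursors, cells that carry CD115 (the M-CSF receptor), have little or no CD11b and lack CD3 and CD45R. The 4 groups of 3 libraries were female and male cells in M-CSF alone, and female and male cells in M-CSF with 30 ng/ml RANKL, all treated for 3 days by the titles. All 4 groups, controls included, came from mice labelled RUNX1 fl/+, that is, with one floxed Runx1 allele, and the titles also carry the tag WT. No Cre driver and no age are given in the labels. The growth protocol speaks of 6 days in culture. The labels do not say whether replicates came from separate mice or cultures, and p-values therefore measure only how far these libraries spread, which may be technical.

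Scavenger receptors bind modified lipoproteins, glycoproteins and other worn or foreign ligands and carry them into the cell for breakdown. Efferocytosis, the engulfment of dying cells, uses receptors that recognise phosphatidylserine exposed on the dying cell, either directly or through a bridging molecule. The TAM receptor tyrosine kinases Tyro3, Axl and Mertk are of the second kind: their ligand Gas6 binds phosphatidylserine with one end and the receptor with the other. Resident macrophages of many tissues are recognised by several of these genes. Osteoclasts, the cells that resorb bone, form from the same precursors when RANKL is present together with M-CSF, which keeps the precursors alive.

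The 6 libraries without RANKL held 10646697 to 14113420 counts and the 6 with RANKL, all of them deeper, 14303174 to 15983769. Csf1r, which encodes CD115, stood at 1492 ± 172 counts per 1e6 counts of a library (CPM) in M-CSF and 1436 ± 120 CPM with RANKL (SD, n = 6). The 10 osteoclast markers summed to 73.4 to 79.8 CPM in M-CSF and to 29358 to 39126 CPM with RANKL, and the 10 macrophage markers to 14859 to 20526 CPM and to 5827 to 8742 CPM. Lyz2 made up much of the macrophage sum, at 13236 ± 1921 CPM in M-CSF and 3715 ± 1010 CPM with RANKL. Among these markers Csf1r and Cd68 (1226 ± 193 and 1417 ± 186 CPM) overlapped between the treatments. The female-specific transcript Xist and the Y-linked Eif2s3y matched the labelled sex in all 12 libraries. Runx1 stood at 59.8 to 65.9 CPM in M-CSF and at 33.4 to 45.2 CPM with RANKL.

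Of the 9 genes, 8 had all 6 libraries with RANKL below all 6 libraries in M-CSF, and 8 of 9 fell in the mean of both sexes at an adjusted p below 0.05 (edgeR quasi-likelihood test, Benjamini-Hochberg over all genes tested). Over all 13236 genes tested, 22.7% were separated in that way and 31.3% were called lower (64.7% were called in either direction). The 8 were Mrc1, Stab1, Gas6, Cd163, Mertk, Adgre1, Lrp1 and Msr1, and each fell by more than 2 on the log2 scale, a drop reached by 4.90% of all genes tested. The exception was Axl. The median change of the 9 genes was -4.23 on the log2 scale, against 0.02 over all genes tested. The 9 genes were chosen with earlier results of these data known, so their contrast with all genes is a description only. Without RANKL the 9 genes together took 0.633 ± 0.00794% of all counts in female and 0.840 ± 0.0917% in male libraries (SD, n = 3). With RANKL they took 0.0840 ± 0.0215% in female and 0.0742 ± 0.0124% in male libraries. In bulk RNA, fewer cells of a type and less RNA per cell cannot be told apart. The fall moved with the rise of the osteoclast markers and the fall of the summed macrophage markers given above, and their part in the result was not tested. Of the macrophage markers 8 of 10 were called lower, and Csf1r and Cd68 were not called.

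**Figure D1:**
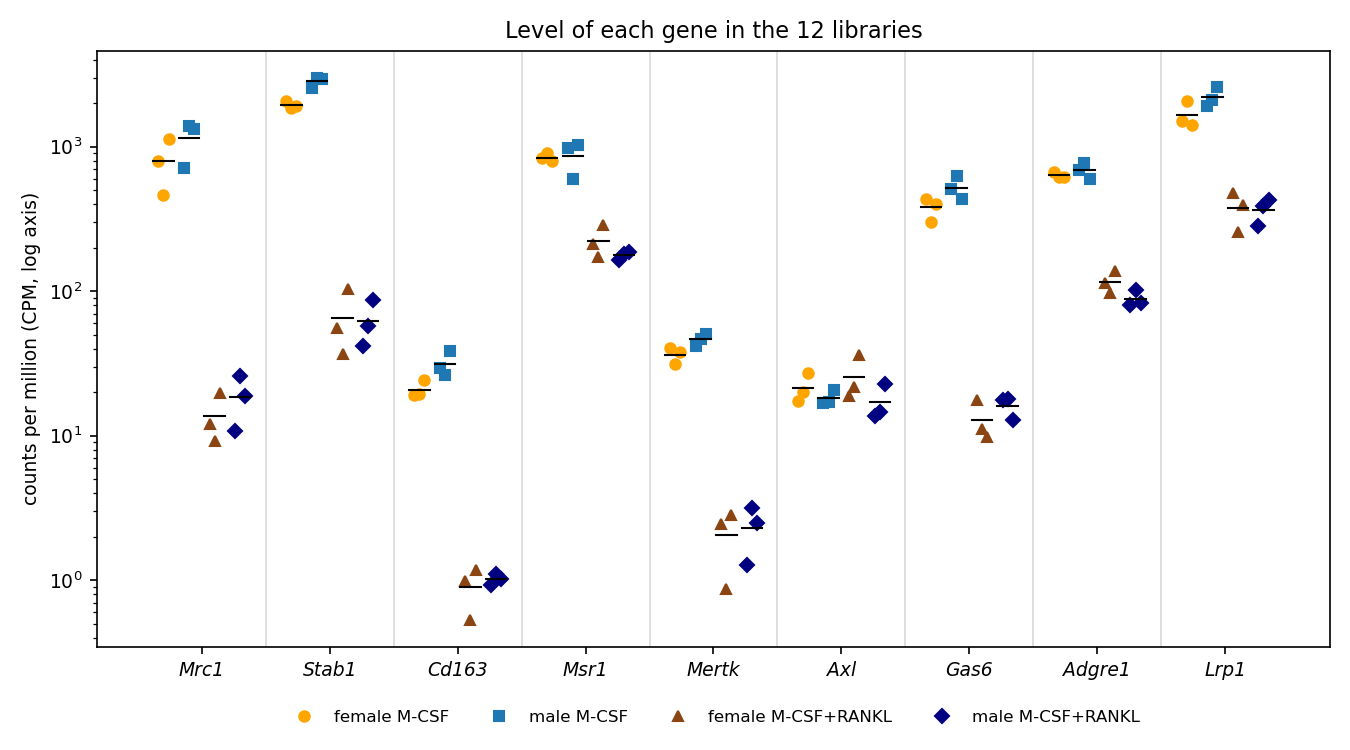
Level of each of the 9 genes in CPM on a log axis, with 1 point per library, 3 libraries per group and a bar at each group mean. The points with RANKL lie below all points in M-CSF for 8 genes, and the 4 groups of Axl overlap.

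Mrc1 (ENSMUSG00000026712) encodes the mannose receptor CD206, an endocytic lectin for mannose-rich glycoproteins, and lies on chr2:14229392-14332057, plus strand, in GENCODE vM21. It stood at 801, 461 and 1122 CPM in female M-CSF and 710, 1392 and 1331 CPM in male M-CSF. With RANKL it stood at 12.1, 9.12 and 19.9 CPM in females and 10.7, 25.7 and 18.8 CPM in males. The lowest library without RANKL was 17.9-fold above the highest library with it. Mrc1 fell by 5.91 ± 0.32 on the log2 scale (SE, adjusted p = 1.67e-09, edgeR), to 1.67% of its M-CSF level, and 22 of the 13236 genes tested had a more negative change.

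Stab1 (ENSMUSG00000042286) encodes stabilin-1, a large receptor that clears modified lipoproteins and matrix fragments and also binds phosphatidylserine. It lies on chr14:31139013-31168641, minus strand. Its level was 2082, 1839 and 1915 CPM in female M-CSF and 2551, 2994 and 2948 CPM in male M-CSF, so that the male libraries all lay above the female ones. With RANKL it was 55.4, 36.6 and 104 CPM in females and 41.8, 57.7 and 87.4 CPM in males, and here the sexes overlapped. Stab1 fell by 5.20 ± 0.26 on the log2 scale (adjusted p = 6.35e-10, edgeR). Its exons overlap those of Nt5dc2 on the opposite strand by 112 bp. No source used here states whether the counting used strand, and some of its counts could belong to that gene.

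Cd163 (ENSMUSG00000008845) encodes the receptor for haptoglobin-haemoglobin complexes and lies on chr6:124304656-124330527, plus strand. It was much scarcer than Mrc1 and Stab1, at 19.0, 19.4 and 24.2 CPM in female M-CSF and 29.6, 26.3 and 38.4 CPM in male M-CSF. With RANKL it was at 0.991, 0.533 and 1.18 CPM in females and 0.923, 1.11 and 1.01 CPM in males. These levels with RANKL rest on 8 to 17 reads per library, so differences among them are within counting error. Cd163 fell by 4.73 ± 0.17 on the log2 scale (adjusted p = 4.08e-11, edgeR).

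Msr1 (ENSMUSG00000025044) encodes scavenger receptor A, a receptor for acetylated and oxidised low-density lipoprotein, and lies on chr8:39581685-39642673, minus strand. It was at 833, 898 and 793 CPM in female M-CSF and 973, 599 and 1032 CPM in male M-CSF. With RANKL it kept 213, 174 and 287 CPM in females and 164, 182 and 186 CPM in males. The groups did not overlap, but the gap between them was only 2.09-fold, the narrowest of the 8 genes. Msr1 fell by 2.10 ± 0.14 on the log2 scale (adjusted p = 1.83e-08, edgeR), to 23.3% of its M-CSF level.

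Among the TAM genes, Mertk (ENSMUSG00000014361; chr2:128698956-128802894, plus strand) encodes the receptor best known for the uptake of dying cells by macrophages. It stood at 40.3, 31.3 and 37.7 CPM in female M-CSF and 41.8, 46.5 and 50.8 CPM in male M-CSF. In the RANKL cultures it was at 2.44, 0.866 and 2.84 CPM in females and 1.28, 3.19 and 2.47 CPM in males, on 13 to 49 reads per library. Mertk fell by 4.23 ± 0.22 on the log2 scale (adjusted p = 1.19e-09, edgeR), with a 9.81-fold gap between the treatments.

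Axl (ENSMUSG00000002602; chr7:25757273-25788705, minus strand) encodes the sister kinase, which in mouse macrophages is often induced by inflammatory signals. It stood at 17.3, 20.2 and 27.1 CPM in female M-CSF and 16.9, 17.01 and 20.7 CPM in male M-CSF. With RANKL it was at 19.0, 21.6 and 36.4 CPM in females and 13.8, 14.7 and 22.9 CPM in males, so all 4 groups overlapped. The change of Axl was 0.08 ± 0.18 on the log2 scale (adjusted p = 0.708, edgeR), with a 95% interval from -0.31 to 0.48. That interval holds modest rises and falls, and does not reach the interval of any of the other 8 genes. In pairs of libraries with the same sex and replicate number, Axl was higher with RANKL in 3 of 3 female pairs and 1 of 3 male pairs.

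Gas6 (ENSMUSG00000031451; chr8:13465374-13494490, minus strand), the ligand of both kinases, stood at 438, 301 and 403 CPM in female M-CSF and 506, 626 and 433 CPM in male M-CSF. After RANKL it was at 17.6, 11.2 and 9.77 CPM in females and 17.6, 17.8 and 12.9 CPM in males. No library with RANKL came near those without it. Gas6 fell by 4.95 ± 0.17 on the log2 scale (adjusted p = 3.18e-11, edgeR), with a 16.9-fold gap between treatments, and had the lowest adjusted p of the 9 genes.

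The third TAM receptor, Tyro3, was looked at after its values were seen; it had 0 to 4 reads per library and was not tested. Per kilobase of exon, the 3 receptors of the M-CSF cultures summed to 12.7 ± 1.43 RPKM (reads scaled by exon length and library size) in females and 14.3 ± 1.40 in males (SD, n = 3). After RANKL the sum was 5.60 ± 2.02 in females and 3.95 ± 1.07 RPKM in males. Axl made up 26.9 to 38.1% of that sum in female M-CSF and 23.9 to 26.0% in male M-CSF. With RANKL its share was 86.8 to 94.9% in females and 79.7 to 89.6% in males. Mertk was thus the main TAM transcript in each of the 6 libraries in M-CSF and Axl in each of the 6 with RANKL, while the Axl level itself overlapped between treatments.

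**Figure D2:**
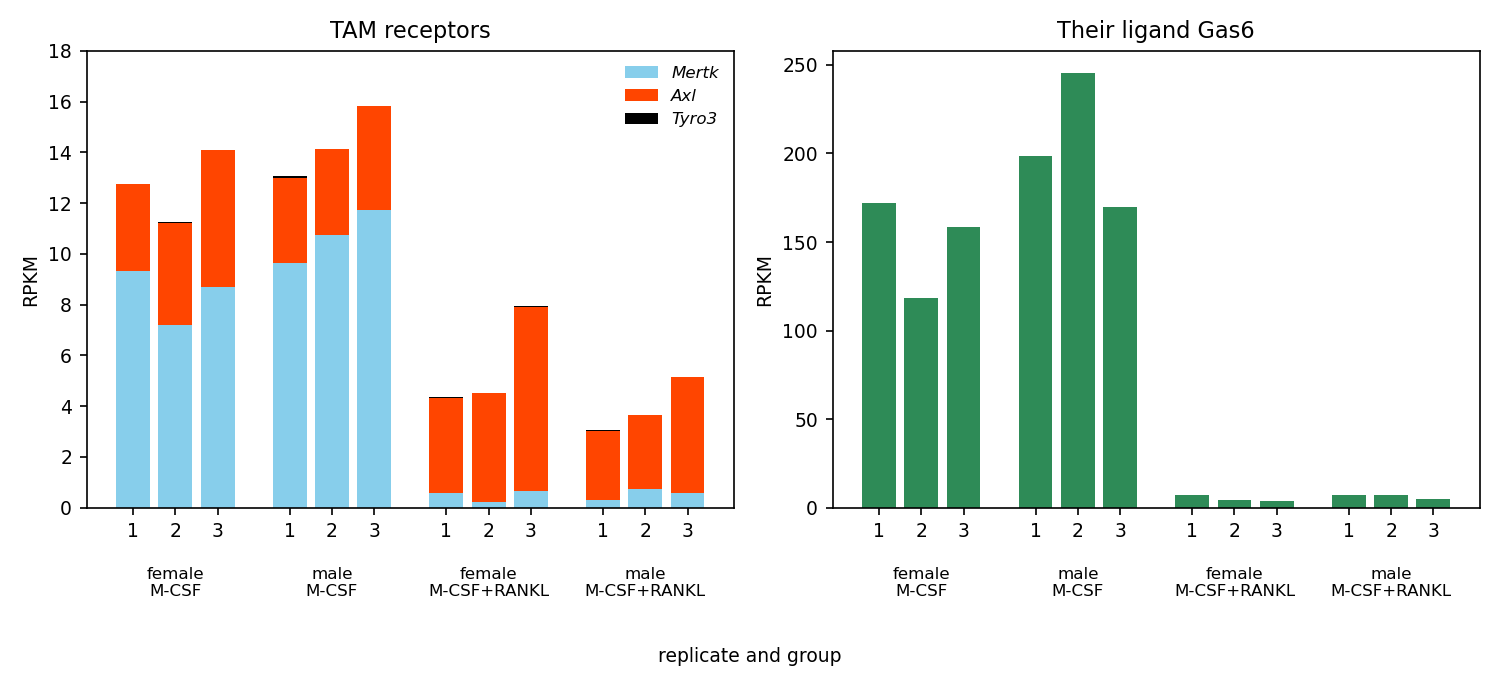
Left, stacked RPKM of the TAM receptors Mertk, Axl and Tyro3 in each of the 12 libraries. Right, RPKM of their ligand Gas6 in the same libraries. With RANKL the Mertk part shrinks to at most 0.735 RPKM, the Axl part spans 2.74 to 7.23 RPKM, and Gas6 is at most 6.99 RPKM.

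Adgre1 (ENSMUSG00000004730; chr17:57358691-57483527, plus strand) encodes F4/80, the adhesion G protein-coupled receptor by which mouse macrophages are commonly recognised. It stood at 669, 616 and 618 CPM in female M-CSF and 690, 767 and 602 CPM in male M-CSF. With RANKL it was at 115, 96.5 and 137 CPM in females and 80.2, 102 and 83.2 CPM in males. Adgre1 fell by 2.70 ± 0.10 on the log2 scale (adjusted p = 6.40e-11, edgeR), to 15.4% of its M-CSF level, with a 4.39-fold gap between treatments.

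Lrp1 (ENSMUSG00000040249; chr10:127538161-127621148, minus strand) encodes a large endocytic receptor of the LDL receptor family that takes up protease-inhibitor complexes and, with calreticulin, dying cells. It stood at 1517, 2057 and 1405 CPM in female M-CSF and 1909, 2104 and 2587 CPM in male M-CSF. In the RANKL cultures it was at 477, 255 and 396 CPM in females and 283, 387 and 430 CPM in males, with no overlap and a 2.95-fold gap. Lrp1 fell by 2.36 ± 0.17 on the log2 scale (adjusted p = 2.30e-08, edgeR).

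By size, the falls formed 2 groups. The 95% intervals of Mrc1, Stab1, Gas6, Cd163 and Mertk lay between -6.60 and -3.75 on the log2 scale, and those of Adgre1, Lrp1 and Msr1 between -2.93 and -1.79. Within each group, neighbours in the order had overlapping intervals. The set therefore held genes left at 1.67% to 5.33% of their M-CSF level, genes left at 15.4% to 23.3%, and Axl.

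Levels of different genes were compared only per length. In M-CSF the order of mean RPKM over 6 libraries was Stab1 at 232 ± 50.1, Adgre1 at 204 ± 19.3, Gas6 at 177 ± 42.6, Mrc1 at 152 ± 58.2, Msr1 at 135 ± 24.1 and Lrp1 at 109 ± 24.3 RPKM (SD). Neighbours in this part of the order did not differ beyond their spread. Mertk at 9.55 ± 1.57, Cd163 at 4.79 ± 1.32 and Axl at 3.95 ± 0.777 RPKM stood far below them. With RANKL the order was led by Msr1 at 31.6 ± 7.12, Adgre1 at 31.6 ± 6.56 and Lrp1 at 21.0 ± 4.84 RPKM. Stab1 at 6.20 ± 2.58, Gas6 at 5.68 ± 1.43, Axl at 4.25 ± 1.63 and Mrc1 at 2.52 ± 1.01 RPKM followed, and Mertk at 0.503 ± 0.210 and Cd163 at 0.175 ± 0.0415 RPKM came last. These places were not all resolved: Axl overlapped Cd163 in M-CSF, and Gas6 and Mrc1 with RANKL, within their spread. With the longest transcript as the gene length, Msr1 took second place in M-CSF, at 235 RPKM in place of 135. Mrc1 at 180 RPKM then stood above Gas6 at 177 RPKM, and the order with RANKL was the same.

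Promoter sequences from RefSeq (GRCm38.p6) were held for 7 of the 9 genes, and 4 are shown: the 3 that held a match to the PU.1 motif below (Mrc1, Stab1 and Axl), and Mertk as 1 of the 4 that held none. Each run is the 250 bases before the RefSeq start, 5′ to 3′ on the gene's own strand. Capitals mark matches on either strand to GAGGAA, a core motif of the myeloid factor PU.1, and to TGCTGA, part of the site of MAF factors.
Mrc1, chr2:14229164-14229413, plus strand: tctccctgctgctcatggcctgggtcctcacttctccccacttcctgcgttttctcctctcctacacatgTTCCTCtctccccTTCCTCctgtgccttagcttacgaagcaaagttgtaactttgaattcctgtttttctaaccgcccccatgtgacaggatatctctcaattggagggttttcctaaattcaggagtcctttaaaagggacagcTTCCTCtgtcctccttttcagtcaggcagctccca
Stab1, chr14:31168642-31168891, minus strand: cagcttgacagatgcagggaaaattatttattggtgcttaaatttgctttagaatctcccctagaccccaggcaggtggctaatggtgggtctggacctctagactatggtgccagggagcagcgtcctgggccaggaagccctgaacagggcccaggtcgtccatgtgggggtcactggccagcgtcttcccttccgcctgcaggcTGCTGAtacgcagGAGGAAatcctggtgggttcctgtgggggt
Mertk, chr2:128698665-128698914, plus strand: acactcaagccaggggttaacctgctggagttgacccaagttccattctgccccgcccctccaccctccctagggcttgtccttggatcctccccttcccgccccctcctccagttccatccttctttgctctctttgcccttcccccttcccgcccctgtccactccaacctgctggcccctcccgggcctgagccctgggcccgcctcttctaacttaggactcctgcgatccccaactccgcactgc
Axl, chr7:25788734-25788983, minus strand: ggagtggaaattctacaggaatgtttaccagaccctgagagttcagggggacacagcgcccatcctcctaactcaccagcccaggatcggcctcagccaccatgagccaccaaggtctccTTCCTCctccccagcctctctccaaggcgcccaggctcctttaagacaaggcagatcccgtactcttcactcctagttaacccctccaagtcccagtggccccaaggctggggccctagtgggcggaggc

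The Mrc1 promoter held 3 matches to GAGGAA, which begin 180, 167 and 35 bases before the start and lie on the opposite strand. The Stab1 promoter held a match 30 bases before the start and a MAF match TGCTGA 43 bases before it. Axl held 1 match to GAGGAA, 130 bases before the start on the opposite strand, and the Mertk window held neither motif. In windows of 300 bases that run 50 bases past the start, GAGGAA was found on either strand in 3 of the 7 promoters and in 28.28% of all 32851 RefSeq promoters. The MAF motif TGCTGA was found in 1 of 7 and in 19.48% of all, and the NFAT core GGAAA in 5 of 7 and in 61.34%. The AP-1 site TGANTCA, the MITF and TFE site TCANGTGA and the TATA box TATAAA were found in 0 of 7, against 7.808%, 4.179% and 13.62% of all promoters. A GAGGAA match followed by another A overlaps the NFAT core, as in Stab1. Of the 6 promoters of genes that fell, those of Mrc1 and Stab1 held GAGGAA and those of Cd163, Mertk, Gas6 and Lrp1 did not, and the promoter of Axl, which was not called, held 1 match. A match is a description of the letters only.

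The response was then compared between the sexes. In females 8 of 9 genes fell, where 25.1% of all genes tested were called lower and 51.9% in either direction. In males 8 of 9 fell, where 26.6% were called lower and 55.0% in either direction. The log2 change of Mrc1 was -5.86 ± 0.45 in females and -5.95 ± 0.45 in males, and that of Stab1 was -4.90 ± 0.36 and -5.50 ± 0.37. Female and male changes were -4.52 and -4.94 for Cd163, -4.15 and -4.31 for Mertk, and -4.89 and -5.02 for Gas6. Adgre1, Lrp1 and Msr1 changed by -2.45, -2.14 and -1.91 in females and by -2.96, -2.58 and -2.29 in males. For Axl the change was 0.25 ± 0.26 in females (adjusted p = 0.435) and -0.09 ± 0.26 in males (adjusted p = 0.802, edgeR). The difference of the responses, female minus male, was positive for all 9 genes, from 0.09 for Mrc1 to 0.61 for Stab1 on the log2 scale, and was called for 0 of 9. Its median over all genes tested was 0.007. The 9 signs are not independent, because 31 of the 36 pairs of these genes correlated positively over the libraries after subtraction of the group means. Gas6 stood apart, with 3 of its 8 pairs positive. Over the alternatives run, the difference of Stab1 ranged from 0.11 (without female M-CSF+RANKL replicate 3) to 0.94 (without male M-CSF+RANKL replicate 3), and the sign turned for Mrc1, Mertk and Gas6 when 1 library was left out. The difference was called for 0% of all genes tested, and 260 of them had an unadjusted p below 0.05. The smallest unadjusted p of the set belonged to Adgre1, whose difference was 0.51 ± 0.20 (unadjusted p = 0.0217, adjusted p = 0.9999, edgeR). The intervals of the others covered 0 and were wide, for Mrc1 from -1.08 to 1.26, so equal responses were not shown.

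**Figure D3:**
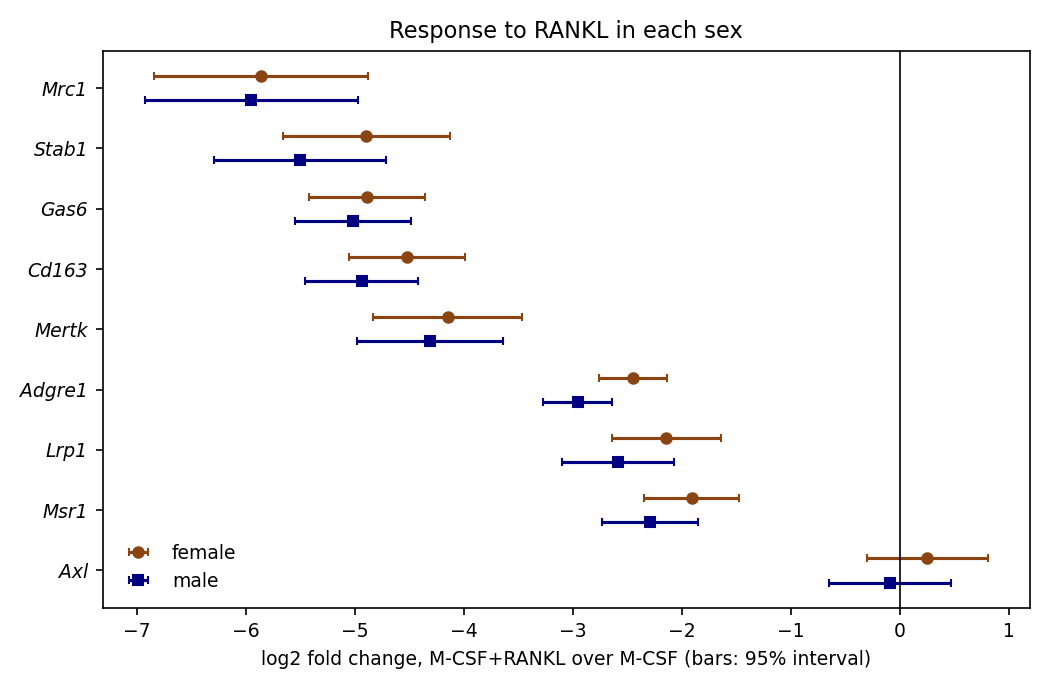
Log2 fold change of M-CSF+RANKL over M-CSF for each of the 9 genes in females and males, with 95% intervals derived from the edgeR F statistic, 3 libraries per group. Both intervals lie below 0 for 8 genes and cross 0 for Axl, and the female and male intervals of every gene overlap.

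In M-CSF, 8 of 9 genes had a lower fitted level in females than in males, and 0 of 9 were called, where 0.0453% of all genes tested were called. The median difference over all genes tested was -0.003 on the log2 scale, and these signs too are not independent. Cd163 had the largest difference, at -0.59 ± 0.18 on the log2 scale, female minus male (unadjusted p = 0.00643, adjusted p = 0.873, edgeR). For Cd163, Stab1 and Mertk all 3 female libraries lay below all 3 male libraries, which was true of 4.04% of all genes tested. The difference of Stab1 was -0.54 ± 0.30 and that of Mertk -0.35 ± 0.25 on the log2 scale, both at an adjusted p of 0.873. With RANKL 0 of 9 genes were called between the sexes (0.0529% of all genes tested), and the sexes overlapped for all 9, where 3.25% of all genes tested had every female library below and 4.36% every female library above. There Adgre1 was 0.39 ± 0.14 higher in females on the log2 scale (unadjusted p = 0.0141, adjusted p = 0.9999, edgeR) and Axl 0.58 ± 0.26 higher (unadjusted p = 0.0416, adjusted p = 0.9999, edgeR). Of the neutrophil markers 0 of 9 tested were called for RANKL, against 64.7% of all genes tested in either direction. They summed to 97.9 to 306 CPM in female and 54.9 to 81.3 CPM in male cultures without RANKL. With RANKL the sums were 101 to 315 CPM in female and 58.0 to 88.3 CPM in male cultures. They thus moved with sex, and their part in the differences between the sexes was not tested.

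Some libraries stood low or high within their treatment for several of the 9 genes, ranked over the 6 libraries of both sexes. Replicate 2 of female M-CSF+RANKL had the lowest CPM of the 6 libraries with RANKL for 5 genes (Mrc1, Cd163, Stab1, Mertk and Lrp1). Replicate 1 of male M-CSF+RANKL was among the lowest pair for 8 genes, and replicate 3 of female M-CSF+RANKL was the highest for 5 (Cd163, Msr1, Stab1, Axl and Adgre1). Among the 6 libraries in M-CSF, replicate 2 of the females was lowest for 4 genes, and replicates 2 and 3 of the males were each highest for 4. These ranks also carry the difference between the sexes. For Cd163, Stab1 and Mertk every female library in M-CSF lay below every male one. The neutrophil markers summed to 101 CPM in female M-CSF+RANKL replicate 2 and to 315 CPM in replicate 3, the lowest and the highest of that group, and their part in this spread was not tested. After subtraction of the group means, the correlation of log2 CPM over the 12 libraries was positive for 31 of the 36 pairs of the 9 genes. It was highest for Stab1 with Mertk and for Cd163 with Mertk (r = 0.789 each) and lowest for Axl with Gas6 (r = -0.674), as a description of libraries that share depth and handling. Of the 8 pairs with Gas6, 3 were positive.

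**Figure D4:**
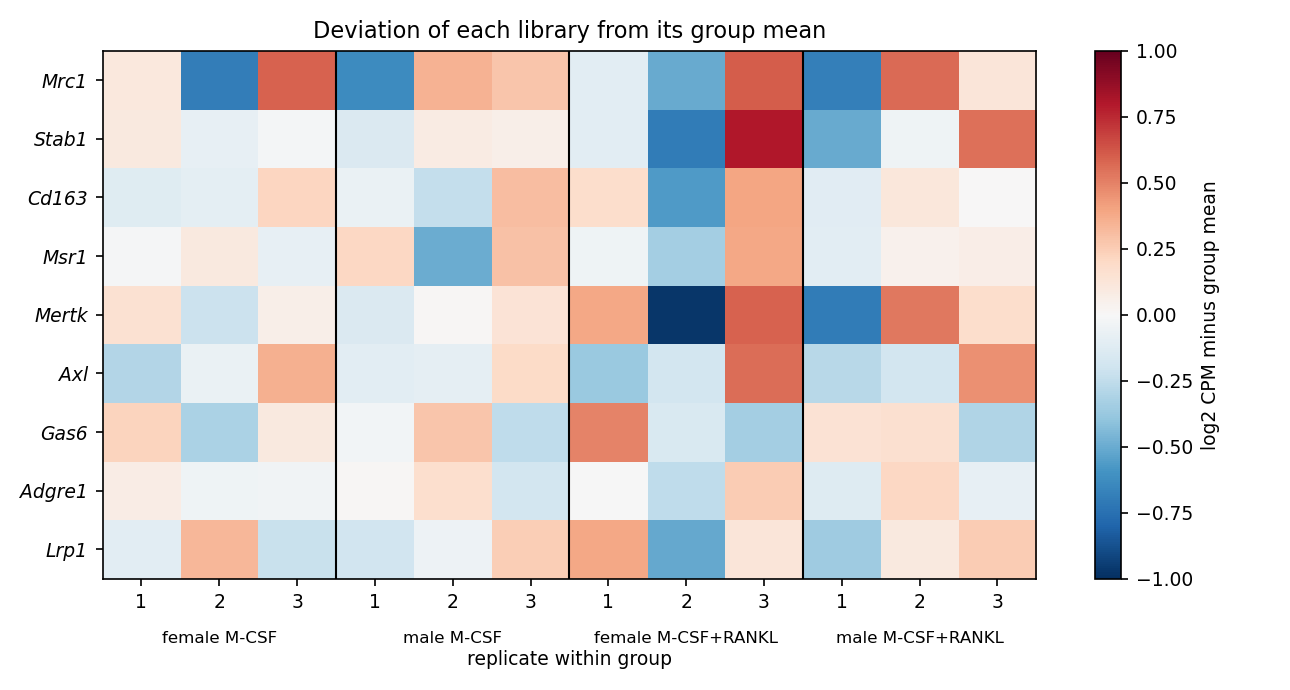
Deviation of each library from its group mean, in log2 CPM, for the 9 genes (rows) and 12 libraries (columns, 3 per group). Red is above and blue below the group mean, and female M-CSF+RANKL replicate 2 is below its group mean for all 9 genes, from -0.15 for Gas6 to -0.97 for Mertk.

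The genes most like members of the set over the 12 libraries were sought among all genes tested. Stab1 ran closest with Hip1 (r = 0.998 of log2 CPM), which was also its closest gene after subtraction of the group means (r = 0.992). Adgre1 ran closest with Fads1 (r = 0.998), Mrc1 with Man1a, Mertk with Dse (r = 0.997 each), Gas6 with Cds1 (r = 0.996), Msr1 with Ctsc (r = 0.995) and Lrp1 with Nlrp1b (r = 0.993). Such values were common, because the treatments separate many genes: each of the 8 genes that fell had 798 to 1273 genes at an r above 0.95, or 6.03 to 9.62% of those tested. Axl had 0, and its closest gene was Nedd4 (r = 0.933). After subtraction of the group means Axl ran closest with Pf4 (r = 0.981), Gas6 with Sqle (r = 0.946), a gene of sterol synthesis, and Lrp1 with Amot (r = 0.980). The values after subtraction are the highest picked from all genes tested over only 12 libraries. How many genes reach such an r was not counted, so they are a description only.

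Relatives of the 9 genes did not all move as they did. Of 20 other scavenger receptor genes, 15 were tested, of which 7 (46.7%) fell and 3 rose, with a median change of -0.21 on the log2 scale. Beside these and the following counts, 31.3% of all genes tested fell and 64.7% were called in either direction, with a median of 0.02, so the called share of these 15 was near that of all genes. Cd36, a receptor for oxidised lipids, fell by 5.75 ± 0.17 on the log2 scale, from 1801 ± 155 to 33.9 ± 11.2 CPM (SD, n = 6), and Marco, another class A receptor, fell by 3.44 ± 0.31. Ssc5d, a soluble member of the scavenger receptor cysteine-rich family to which Cd163 belongs, rose by 6.43 ± 0.25 on the log2 scale, from 0.230 ± 0.109 to 20.6 ± 4.30 CPM. In M-CSF Ssc5d lay near the floor, at 0.0905 to 0.375 CPM, so the size of its rise is imprecise. Of the family of Mrc1, Ly75 was the 1 tested gene of 3, and it rose by 1.55 ± 0.27, to 1.68 ± 0.475 CPM. Both tested relatives of Adgre1 rose, Adgre5 (CD97) by 1.78 ± 0.10 on the log2 scale, from 69.0 ± 11.8 to 236 ± 11.9 CPM, and Adgre4 by 3.81 ± 0.30. Ly75 and Adgre4, both under 5 CPM, were named after their values were seen. Of the LDL receptor family 11 of 13 were tested, of which 6 (54.5%) fell and 3 rose, with a median of -0.63. The endocytic receptor Lrp8 fell by 2.10 ± 0.11 and Lrp12 by 1.60 ± 0.11, and Lrp4 rose by 1.41 ± 0.14 on the log2 scale.

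Other receptors for phosphatidylserine changed in both directions. Of 14 genes, 10 were tested, of which 7 (70.0%, against 31.3% of all genes tested) fell and 3 rose, with a median of -2.10 on the log2 scale. Trem2, a lipid-sensing receptor that signals through an ITAM adaptor, fell by 3.29 ± 0.13, from 444 ± 66.7 to 45.6 ± 7.90 CPM, and Cd300lf fell by 2.71 ± 0.28. Itgb3, the integrin subunit by which osteoclasts hold on to bone and which also pairs with Itgav to bind bridged dying cells, rose by 8.15 ± 0.23 on the log2 scale, from 1.75 ± 0.475 to 497 ± 115 CPM. Its partner Itgav, named after its values were seen, rose by 2.64 ± 0.15, and the alternative partner Itgb5, likewise, fell by 2.32 ± 0.12. Adgrb1, also named afterwards, had no count in the 6 libraries in M-CSF and 2.16 ± 0.833 CPM with RANKL, which is at least 53.3-fold higher against a floor of 3 counts over those 6 libraries.

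Of 12 other bridging molecules and opsonins 10 were tested, of which 5 (50%, against 31.3% of all genes tested) fell and 3 rose, with a median of -0.23. The complement genes C1qc, C1qa and C1qb led with changes of -5.20 ± 0.27, -5.10 ± 0.25 and -4.81 ± 0.27 on the log2 scale. The other TAM ligand, Pros1, fell by 2.43 ± 0.15, from 24.0 ± 4.24 to 4.40 ± 0.899 CPM. The 2 integrin ligands Mfge8 and Edil3, which bridge phosphatidylserine to the Itgav integrins, rose: Mfge8 by 2.02 ± 0.11, from 23.4 ± 2.43 to 95.1 ± 14.5 CPM, and Edil3 by 4.13 ± 0.25, from 5.02 ± 1.91 to 88.7 ± 24.3 CPM. Pros1, Mfge8 and Edil3 were named after their values were seen. All changes in this and the preceding 2 paragraphs given as falls or rises passed an adjusted p of 0.05 in the edgeR fit of the mean of both sexes.

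Of 12 transcription factor genes known to act on macrophage identity or on these receptors, all tested, 7 (58.3%, against 31.3% of all genes tested) fell and 4 rose, with a median of -0.64 on the log2 scale. Maf, which encodes c-MAF, fell by 4.17 ± 0.23, from 275 ± 54.4 to 15.3 ± 5.75 CPM. Spic, which encodes a factor of the PU.1 family, rose by 5.14 ± 0.21, from 0.266 ± 0.126 to 9.18 ± 1.70 CPM. Its M-CSF level, 0.0938 to 0.427 CPM, was near the floor, so the size of this rise is imprecise. Spi1, which encodes PU.1 itself and was named after its values were seen, rose by 1.20 ± 0.10, from 301 ± 37.8 to 690 ± 70.6 CPM. Of the proteases that shed Mertk, Axl, Lrp1 and Cd163 from the cell surface, and their cofactor, 3 of 3 fell, against 31.3% of all genes tested. Adam17 fell by 0.77 ± 0.09, Adam10 by 0.60 ± 0.13 and Rhbdf2 by 0.48 ± 0.09 on the log2 scale. Of all genes tested 64.7% were called in either direction. The falls and rises in this paragraph passed an adjusted p of 0.05 in the edgeR fit of the mean of both sexes.

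**Figure D5:**
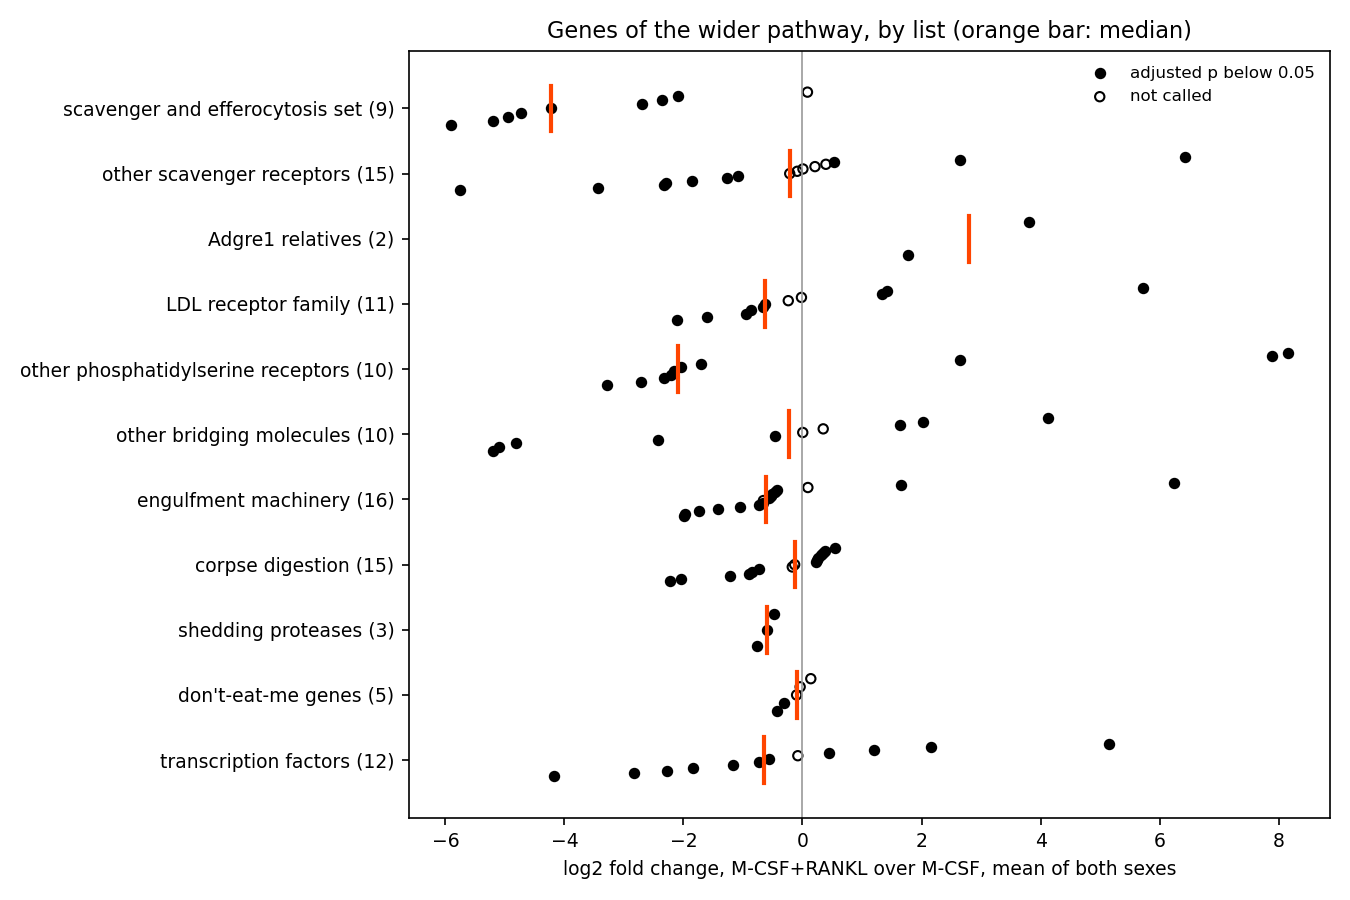
Log2 fold change with RANKL, mean of both sexes, for each tested gene of the set and of 10 lists of related genes, with the number tested in brackets. Filled points passed an adjusted p of 0.05, open points did not, and the orange bar is the list median, -4.23 for the 9 genes and between -2.10 and 2.79 for the others; the point of Adgrb1, with no count in M-CSF, is a fitted value and no bound.

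The authors' deposited table held all 9 genes and gave 8 of 9 a false discovery rate below 0.05 in females and 8 of 9 in males. For Axl the authors' deposited table gave 0.396 in females and 0.825 in males. Between the sexes it called 0 of 9 genes in either treatment.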

How the data were processed

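The authors deposited whole-number read counts per gene, a count table after their filter with its log2 CPM, and a table of comparisons with log2 fold changes and p-values. Per the submitters' processing notes fastp, STAR 2.7.3a, edgeR and the build mm10 were used; per the labels' protocols libraries came from a stranded poly(A) kit. How reads were assigned to genes, strand included, is not given in the sources used here.

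Everything else was computed from the full counts in R 4.3.3 with edgeR 4.0.16, limma 3.58.1 and DESeq2 1.42.0. Genes were kept by filterByExpr (minimum count 10), scaled by TMM and fitted with 1 mean per group over all 12 libraries; calls need an adjusted p below 0.05. RPKM uses the merged exons of GENCODE vM21, which held 23855 of the 23863 gene IDs. CPM and RPKM means are over libraries. The fit was also run on counts simulated from its own estimates with independent libraries. That setting leaves out the pairing of libraries described below, and its outcome is not reported here. Columns without a sample numbered 0.

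The 9 genes and the lists were chosen with earlier results of these data known. The text names all 9; from each other list, up to 3 called genes with the largest change and at least 5 CPM in the higher treatment (where none is called, the most abundant gene); and the genes most correlated with each of the 9. Others are said to be named after their values were seen. A few results under this rule are not reported here.

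Counts of replicates differed more than sampling noise (chi-square over its degrees of freedom 11.2 to 33.7), so none was a repeat deposit. Replicate numbers come from the titles. Within a sex, libraries with the same number deviated together (r = 0.302 to 0.706 in 6 pairs, over 8920 genes), so the numbers were taken to pair the libraries. The 12 other pairs had r from -0.618 to -0.00958. Deviations from a group mean cancel within the group, which pushes these other values down, so they are no separate contrast. Alternatives were other scalings, filters, tests and samples, leaving out each library, and a replicate block.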

Additional observations from a re-analysis of the deposited data

How the results depend on the processing

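In the mean of both sexes, in females and in males, 8 of 9 genes were called lower in every alternative run, with the replicate block included, and in the other 3 comparisons 0 of 9 were called in every alternative run. The block, the number within a sex, changed no call of the 9 genes. For the mean and the difference of the responses, a fit of only the compared groups is the same as the fit of all 12 libraries. The counts of all genes called between the sexes did move: in M-CSF 6 genes, but 12 with no filter on low counts, 16 with the DESeq2 Wald test and 10 with only the libraries compared; with RANKL 7 genes, but 11 with no filter and 20 with DESeq2. Leaving out each library gave 6 to 9 such genes in M-CSF and 6 to 12 with RANKL, the 12 without female M-CSF+RANKL replicate 2.

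All changes of sign came from leaving out 1 library and touched values that were not called. On the log2 scale the ranges were, for Axl, -0.079 to 0.18 in the mean, -0.071 to 0.44 in females and -0.36 to 0.047 in males; for the difference of responses, -0.26 to 0.41 for Mrc1, -0.13 to 0.52 for Mertk and -0.16 to 0.30 for Gas6; for the sexes in M-CSF, -0.27 to 0.10 for Msr1; and with RANKL, -0.41 to 0.082 for Cd163, -0.44 to 0.39 for Stab1, -0.48 to 0.17 for Mertk and -0.17 to 0.24 for Lrp1. The cause was not tested. With the longest transcript as gene length, Stab1 in M-CSF came to 299 RPKM, and Msr1 to 235 RPKM in M-CSF and 55.2 RPKM with RANKL. Depth limits Cd163 and Mertk with RANKL, at 8 to 17 and 13 to 49 reads per library.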

Other observations

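After a dying cell is recognised, the phagocyte closes its membrane around it and digests it. Of 17 genes of the engulfment machinery 16 were tested, of which 12 (75.0%) fell and 2 rose, with a median of -0.61 on the log2 scale (edgeR, mean of both sexes). Of all genes tested 31.3% fell and 64.7% were called in either direction, with a median of 0.02. Ptk2, which encodes focal adhesion kinase, fell by 1.99 ± 0.12, from 41.4 ± 3.16 to 10.4 ± 2.10 CPM (SD, n = 6), and Dock2, an activator of Rac, fell by 1.97 ± 0.12, from 351 ± 40.8 to 90.5 ± 21.1 CPM. Bcar1, which encodes the adhesion scaffold p130Cas, rose by 6.24 ± 0.21, from 0.246 ± 0.120 to 19.2 ± 2.44 CPM. Its M-CSF level, 0.0905 to 0.382 CPM, was near the floor, so the size of this rise is imprecise.

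Of 15 genes of corpse digestion, all tested, 6 (40.0%) fell, 7 rose and 2 were not called, with a median of -0.13. The share that fell was near the 31.3% of all genes tested, of which 64.7% were called in either direction. Lamp2 and Lamp1, which encode the main lysosomal membrane glycoproteins, changed by -2.22 ± 0.15 and -2.03 ± 0.08 on the log2 scale, Lamp1 from 1333 ± 78.8 to 326 ± 35.5 CPM. Cybb, a subunit of the phagocyte oxidase, fell by 1.23 ± 0.13. The largest of the 7 rises was that of Ucp2, named after its values were seen, by 0.55 ± 0.11. Of 5 genes by which cells signal that they should not be eaten, 2 (40.0%, against the same 31.3%) fell: Cd47 by 0.42 ± 0.08 and its receptor Sirpa by 0.32 ± 0.07.

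Of the markers of other cells, 1 dendritic gene of 7 tested rose and 1 fell, where 31.3% of all genes tested fell and 64.7% were called in either direction. Of the B cell genes 1 was tested, Cd79b, which fell by 0.86 ± 0.26, from 2.26 ± 1.23 to 1.19 ± 0.364 CPM. The 3 B cell, 3 T cell and 2 erythroid genes in the table summed to at most 4.43, 1.76 and 0.444 CPM in any library. The 5 stromal genes in the table summed to at most 0.469 CPM in M-CSF and to 2.34 to 6.26 CPM with RANKL. That rise was carried by Dcn, at 0.0116 CPM in M-CSF and 3.17 ± 1.43 CPM with RANKL, while Col1a1, Col1a2 and Lum had 2 to 5 reads each over all 12 libraries.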
